A study of Mus musculus with 11 samples.

Results

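GABA-A receptors are chloride channels built from 5 subunits around a pore, and 7 genes for their subunits (Gabra2, Gabra3, Gabra4, Gabra5, Gabrb1, Gabrb2 and Gabrd) were followed across 11 RNA sequencing libraries from the mouse nucleus accumbens shell. They were taken from the 19 GABA-A subunit genes in the count table, by matching symbol to Ensembl identifier, and were chosen on measured values, the low CPM of Gabra2 in 1 library (m74), so that its possible partners could be read there. The table holds 52550 gene identifiers, of which 15373 passed a filter on low counts (3 libraries with 1 or more CPM, that is, counts scaled to library size, and 10 or more counts in the median library), and all 7 members passed it. Each library is the shell of 1 mouse; the mice were 8 weeks old, with CBA/C57BL6J/129svEmx as their mixed background. The series was set up to ask how reduced signalling through Rarβ, a retinoic acid receptor, acts together with the R6/1 transgene, a fragment of human huntingtin with an expanded repeat. The labels used here give each library an animal name (such as m74) and a code (such as NSZR5) but no genotype, so no library could be placed in a genotype group; values stand per library or as the lowest, median and highest of 11. What the code numbers stand for is not given; m44 carries code NSZR10, whereas the design says that its sample 10 was excluded, so the codes could not be tied to the design's own numbering.

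A GABA-A receptor usually holds alpha and beta subunits, between which GABA binds, together with a gamma or a delta subunit. Gamma-containing receptors gather at synapses on the scaffold protein gephyrin, whereas delta-containing receptors lie outside synapses and carry a tonic current. The alpha subunit sets the response to GABA and to benzodiazepines. Most neurons of the accumbens are themselves GABAergic projection neurons, and alpha2 and alpha4 are major alpha subunits in the striatum. In mice the brain level of Gabra2 is known to differ between inbred strains and to be low in C57BL/6J; the labels do not give the alleles that each animal carried.

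The libraries held 24840981 to 48825783 counts, and no pair matched within counting noise. Markers of striatal projection neurons were abundant in all 11 libraries, among them Ppp1r1b (DARPP-32), at 437.5 to 1352 CPM (library sizes scaled by TMM), and Penk (preproenkephalin), at 300.7 to 1321 CPM. Slc17a7, the vesicular glutamate transporter of cortical neurons, was also present, at 635.7 to 2118 CPM. The score of the 18 projection neuron markers, their mean log2 deviation, fell into separate clusters of libraries, which need not hold for each marker. Summed levels were 6833 to 8174 CPM in 5 libraries, coded NSZR9 to NSZR14, and 3377 to 4144 CPM in 6 libraries, coded NSZR1 to NSZR7. A second axis was the balance between long and short transcripts. The long minus short measure, obtained by subtracting the shortest 10% of genes from the longest 10% (median log2 deviations), ran from -0.64 in m61 to 0.43 in m57. RNA integrity was not among the values used here. In bulk tissue fewer cells of a type and less RNA per cell cannot be told apart.

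Gabra2 codes for alpha2, an alpha subunit of synaptic receptors. The gene (ENSMUSG00000000560) lies on chromosome 5, 70957597 to 71095849, minus strand of mm10, in a cluster with Gabrg1, Gabra4 and Gabrb1. Its RefSeq promoter is shown because its level in m74 is the value on which the gene set was chosen; in this sequence and those that follow, read 5′ to 3′ on the gene's strand from mm10 (GRCm38.p6), capitals mark GC boxes (GGGCGG or, on the other strand, CCGCCC). The stretch shown is chr5:71095850-71096099, minus strand.
Gabra2: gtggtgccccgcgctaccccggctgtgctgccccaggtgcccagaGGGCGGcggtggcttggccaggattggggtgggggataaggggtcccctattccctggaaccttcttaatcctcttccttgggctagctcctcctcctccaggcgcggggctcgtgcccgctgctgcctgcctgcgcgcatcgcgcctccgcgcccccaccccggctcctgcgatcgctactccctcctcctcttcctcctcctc
It was 70.0% G and C, against a median of 52.4% over 32851 RefSeq promoters of the same window, and 32.7% of those held a GC box.

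Gabra2 had 67.5 CPM in m74 (2757 counts), whereas among the other libraries m115 was lowest at 168.5 CPM and m61 highest at 292 CPM; the median of 11 was 211 CPM. m74 thus stood alone below the rest: the gap to the next library took 0.624 of the whole range on the log2 scale. On the log2(CPM + 0.5) scale, used for every deviation and range in this account, Gabra2 lay 1.63 below its median in m74, the 9th lowest deviation of 15373 genes in that library. Without m74 its range was 0.79 on this scale, against 2.11 over all 11 libraries. These values chose the gene and are given as a description.

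Gabra4 codes for alpha4, which often joins delta in receptors outside synapses. It had 60.28 CPM in m74 and 61.76 CPM in m49, the 2 lowest values. In the other 9 libraries Gabra4 ran from 87.58 CPM in m101 to 133.7 CPM in m73, with a median of 111.8 CPM over all 11. Gabra4 was therefore about as low in m49 as in m74, while Gabra2 had 67.5 CPM in m74 and 178.2 CPM in m49.

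Gabrb1 codes for beta1, one of the beta subunits that help to form the GABA site. Its lowest level was 89.81 CPM (m74), its median 118.2 CPM and its highest 167.5 CPM (m57). Low values were close together: m49, m83 and m101 had 106.2, 106.5 and 109.3 CPM, so that m74 was lowest by 0.269 of the range. The genes for alpha4 and beta1 lie head to head, Gabra4 at 71569749 to 71658308 on the minus strand and Gabrb1 at 71658113 to 72149037 on the plus strand of chromosome 5. They overlap by 196 bases in GENCODE M21, and how strand was set in the counting is not known, so reads from that stretch could be counted for either gene.

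Gabra5 codes for alpha5, the subunit of many receptors outside synapses in hippocampus. Its level was also lowest in m74, at 48.72 CPM, but within a narrow span: the median was 57.9 CPM and the highest value 67.43 CPM, in m61. Of all genes tested, 93.4% had a range at least as wide. Gabra5 (chromosome 7, 57407672 to 57510059, minus strand) is also overlapped on the other strand, so its reads are uncertain in the same way.

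Gabra3, which codes for alpha3 and lies on the X chromosome (72432681 to 72656848, minus strand), did not stand out in m74. It had 164.9 CPM there, against a lowest value of 141.1 CPM in m115, a median of 167.7 CPM and a highest value of 211.7 CPM in m49. Its range of 0.58 on the log2 scale was reached by 83.8% of all genes.

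Gabrb2 codes for beta2, the most widespread beta subunit of the adult brain. It had the widest range of the 7 genes, from 5.42 CPM in m83 to 85.55 CPM in m57, a 15.8-fold difference, with a median of 16.67 CPM. Low libraries were m83, m101 (5.93 CPM) and m61 (9.84 CPM), and high libraries were m57, m115 (60.33 CPM) and m47 (48.82 CPM). No gap split the libraries, and m74 sat near the middle, at 16.04 CPM. Counts ran from 172 to 2962, so counting error is small beside this range. Of all genes tested, 0.247% had a range at least as wide, and none of the 1649 genes within 10% of its exon length did. The gene lies on chromosome 11, 42419757 to 42629028, plus strand.

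Gabrd codes for delta. Its lowest level was 32.54 CPM (m47) and its highest 112.4 CPM (m83), and the median, 50.24 CPM, was the value of m74 itself. The gene lies on chromosome 4, 155384980 to 155398112, minus strand. The libraries coded NSZR9 to NSZR14 held the 5 highest values.

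**Figure D1:**
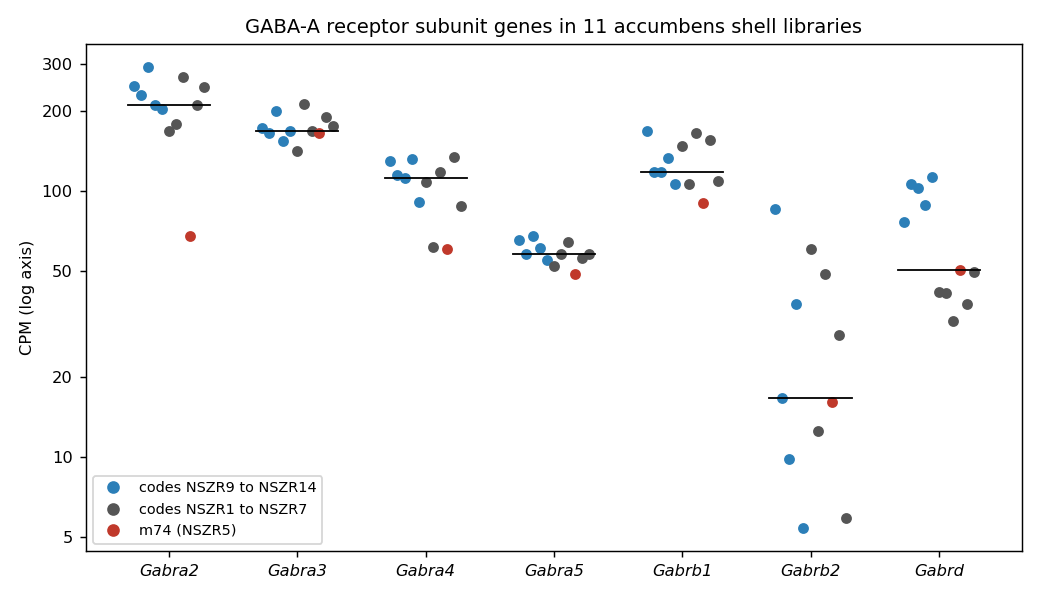
CPM (log axis) of the 7 GABA-A subunit genes in 11 libraries, 1 point a library, with the median as a line. Gabra2 in m74 (67.5 CPM) stands below the other 10 libraries, Gabrb2 spreads from 5.42 to 85.55 CPM, and Gabrd is higher in the 5 libraries of codes NSZR9 to NSZR14 than in the 6 of codes NSZR1 to NSZR7.

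Of the 7 genes, 4 (Gabra2, Gabra4, Gabrb2 and Gabrd) had a log2 range of at least 1, and 44.3% of all genes tested did. Gabra2 is in this count only through m74, the value on which the set was chosen: without m74 its range was 0.79. The median range of the 7, Gabra2 included, was 1.143, against 0.93 over all genes. Per kb of exon the median levels were 42.7 CPM for Gabra3, 27.6 for Gabra2, 19.5 for Gabra5, 18.4 for Gabra4, 17.5 for Gabrd, 8.54 for Gabrb1 and 2.62 for Gabrb2. Neighbours in this order overlapped across libraries: Gabra3 ran from 35.96 to 53.94 CPM per kb and Gabra2 from 8.83 to 38.21, and Gabrb1 ran from 6.49 to 12.11 and Gabrb2 from 0.852 to 13.45.

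In m74, 4 of the 7 genes (Gabra2, Gabra4, Gabra5 and Gabrb1) had their lowest level, where 8.87% of all genes did. Gabra2 is in this count because it chose the set. The sizes were unequal: Gabra4 deviated from its median by -0.89, Gabrb1 by -0.39 and Gabra5 by -0.25, while Gabrb2 (-0.05), Gabra3 (-0.02) and Gabrd (0.00) stayed near theirs. A deviation of -1 or lower was found for Gabra2 alone among the 7, and for 0.618% of all genes in m74. One library cannot be tested against the others, so these are descriptions of m74.

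The other GABA-A subunit genes also lay low there. Of 12, 7 passed the filter, and all 7 deviated below 0 in m74, with a median of -0.50, against 0.00 over all genes. Among all genes tested, 45.3% deviated below 0 in m74. Gabrg1 (18.56 CPM), Gabrg3 (47.57 CPM), both gamma subunit genes, and Gabre (0.318 CPM, epsilon) were among those at their lowest level in m74, against medians of 32.3, 65.29 and 1.36 CPM.

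Gabra4 and Gabrg1 were low in both m74 and m49. In m74 the deviations were -0.89 for Gabra4 and -0.78 for Gabrg1, and in m49 they were -0.85 and -0.68. Gabra2 deviated by -1.63 in m74 and by -0.24 in m49. The pairing of m49 with m74 was chosen after these values were seen.

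**Figure D2:**
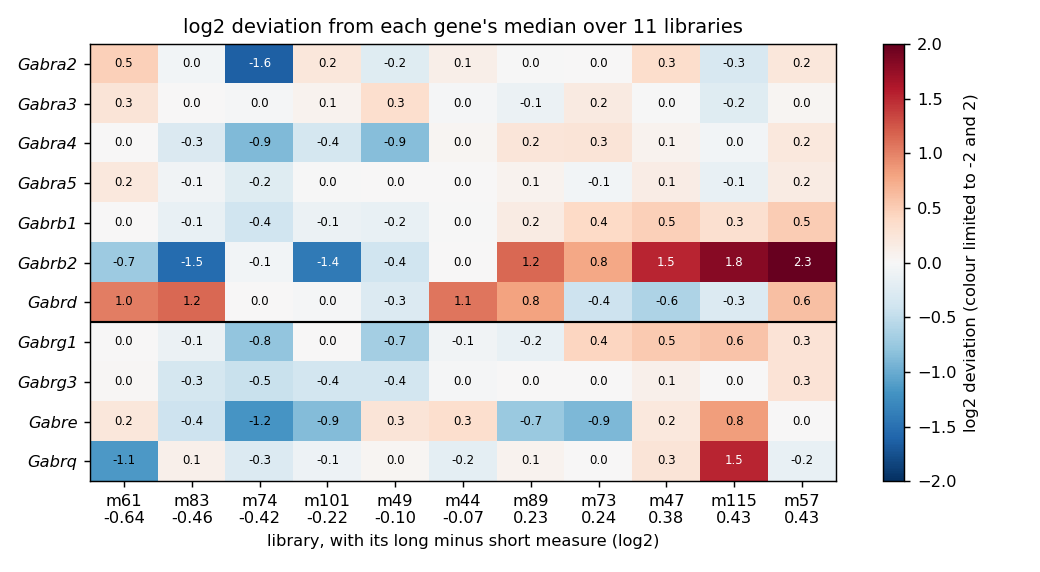
Log2 deviation of each gene from its median over 11 libraries, for the 7 genes (above the line) and Gabrg1, Gabrg3, Gabre and Gabrq (below it); libraries run from the lowest to the highest long minus short measure. In m74 the cells of Gabra2 (-1.63), Gabre (-1.18, at 13 counts), Gabra4 (-0.89) and Gabrg1 (-0.78) are blue. Gabra4 (-0.85) and Gabrg1 (-0.68) are also blue in m49. Gabrb2 turns from blue to red from left to right.

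Scaffold and trafficking genes of the inhibitory synapse were not low as a list in m74. Of 22 such genes 8 deviated below 0 and 1 had its lowest level there, and the median deviation was 0.00. Of 15 genes for GABA synthesis, transport, breakdown and GABA-B receptors, 13 deviated below 0 in m74. Their median deviation was -0.23, and 6 had their lowest level there. Over all genes tested 45.3% deviated below 0 in m74 and 8.87% were at their lowest. Among the 6 were Gad1 and Gad2, the genes of the GABA-synthesising enzymes, at 393.0 and 260.2 CPM, against medians of 517.1 and 372.6 CPM. Kctd12, which codes for an auxiliary subunit of GABA-B receptors, had 47.57 CPM in m74 and a median of 93.45 CPM.

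The projection neuron score was negative in all 6 libraries coded NSZR1 to NSZR7, from -0.48 in m74 to -0.16 in m115, so a low value was shared by that set. All 18 projection neuron markers lay below their medians in m74, with a median deviation of -0.42, and 6 of the 18, among them Drd1, Bcl11b, Foxp1, Foxp2 and Meis2, were at their lowest. Among all genes tested, 45.3% lay below their medians in m74 and 8.87% were at their lowest there. Drd1, the dopamine D1 receptor gene, had 45.12 CPM in m74 against a median of 84.48 CPM. The summed projection neuron markers were 3377 CPM in m74 and 3453 to 8174 CPM in the other libraries. Of 14 interneuron markers, 8 lay below their medians in m74 and 3 (Nkx2-1, Slc5a7 and Lhx8) were lowest there, whereas Chat and Slc18a3, which define cholinergic neurons, were lowest in m101 and m73. The interneuron markers summed to 776.4 CPM in m74 and to 472 to 1079 CPM elsewhere. Astrocyte markers summed to 2855 CPM against 2567 to 3870 CPM, cortical glutamatergic markers to 1906 CPM against 1160 to 3068 CPM, and markers of oligodendrocytes and their precursors to 3552 CPM against 2073 to 5008 CPM. The markers of septum, thalamus and hypothalamus summed to 94.38 CPM in m74 and to 108.8 to 155.7 CPM elsewhere, and those of the ventricle wall to 175.0 CPM against 117.8 to 444.6 CPM. The long minus short measure of m74 was -0.42, with m61 (-0.64) and m83 (-0.46) lower still. The part of these measures in the subunit levels of m74 was not tested.

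Around Gabra2 on chromosome 5, 63 genes of the table lay within 2 Mb and 14 passed the filter. Of the other 13, 10 lay below their median in m74 and 4 (Gnpda2, Gabrg1, Gabra4 and Gabrb1) were at their lowest there, but none reached -1. Over all genes tested the shares in m74 were 45.3% below the median, 8.87% at their lowest and 0.618% at -1 or lower. Gabrg1 deviated by -0.78, Kctd8, a GABA-B receptor auxiliary subunit gene, by -0.76, and Gnpda2, which codes for a glucosamine-6-phosphate deaminase, by -0.72. Commd8 (-0.02), Atp10d (0.00) and Nfxl1 (0.03), on the far side of Gabrb1, were near their medians. Farther out on that side Slain2 deviated by -0.07, Slc10a4 by -0.41 and Fryl by -0.25. Tec, a tyrosine kinase gene, was highest in m74, at 4.01 CPM against a median of 2.08 CPM.

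**Figure D3:**
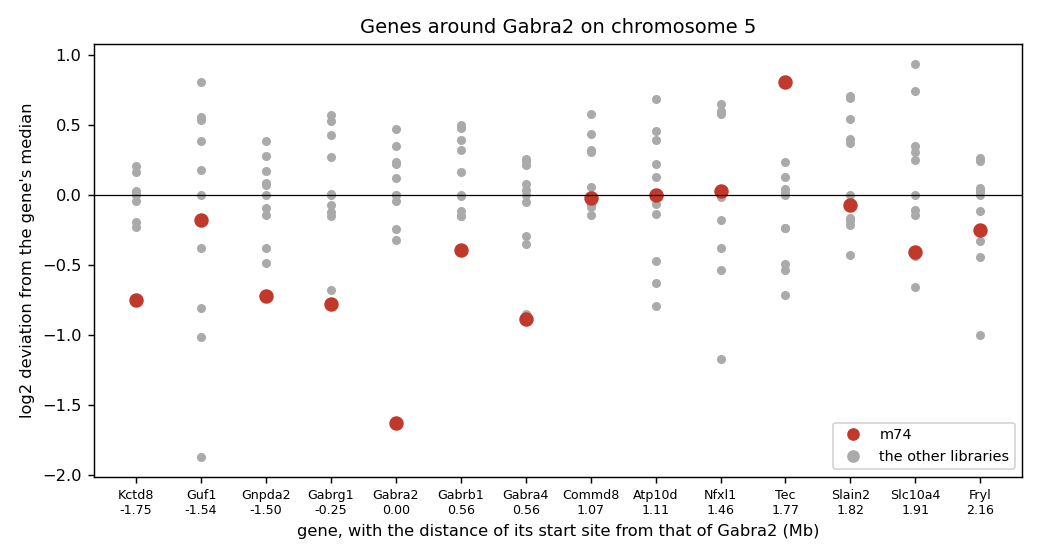
Log2 deviation of the 14 genes past the filter within 2 Mb of Gabra2 in m74 (red) and in the other 10 libraries (grey), ordered by the distance of their start sites from that of Gabra2. Gabra2 in m74 (-1.63) lies below every neighbour in m74, and Tec (0.81) lies above.

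The genes most like Gabra2 over 11 libraries were Trim37 (r = 0.926), 2900064F13Rik (0.917), Amd2 (0.902), Dek (0.893) and Nptn (0.890). This ranking includes m74, the library on which the set was chosen. Without m74 their r lay between 0.629 and 0.757, with an adjusted permutation p of 0.873 for each, and 0.0% of all genes were related to Gabra2.

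As shares of the summed alpha subunit genes per kb of exon, Gabra2 made up 9.68% in m74, against 17.8 to 24.7% in the other libraries. Gabra3 had its largest share there, 46.0%, just above 45.1% in m49 and against a median of 32.9%. The larger share of Gabra3 was not a higher level, since its CPM in m74 lay below its median. The summed alpha subunit genes reached 91.3 CPM per kb in m74 and 119.5 to 155 CPM per kb elsewhere. Without Gabra2 the sum was still lowest in m74, at 82.46 CPM per kb, against 92.95 to 124 CPM per kb. The size of the Gabra2 share depends on the length used, being 16.7% per coding length and 15.2% with no length, but m74 had the lowest share in each case.

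Per kb of exon Gabrd made up 22.3% (m47) to 59.1% (m83) of the summed gamma and delta subunit genes.

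**Figure D4:**
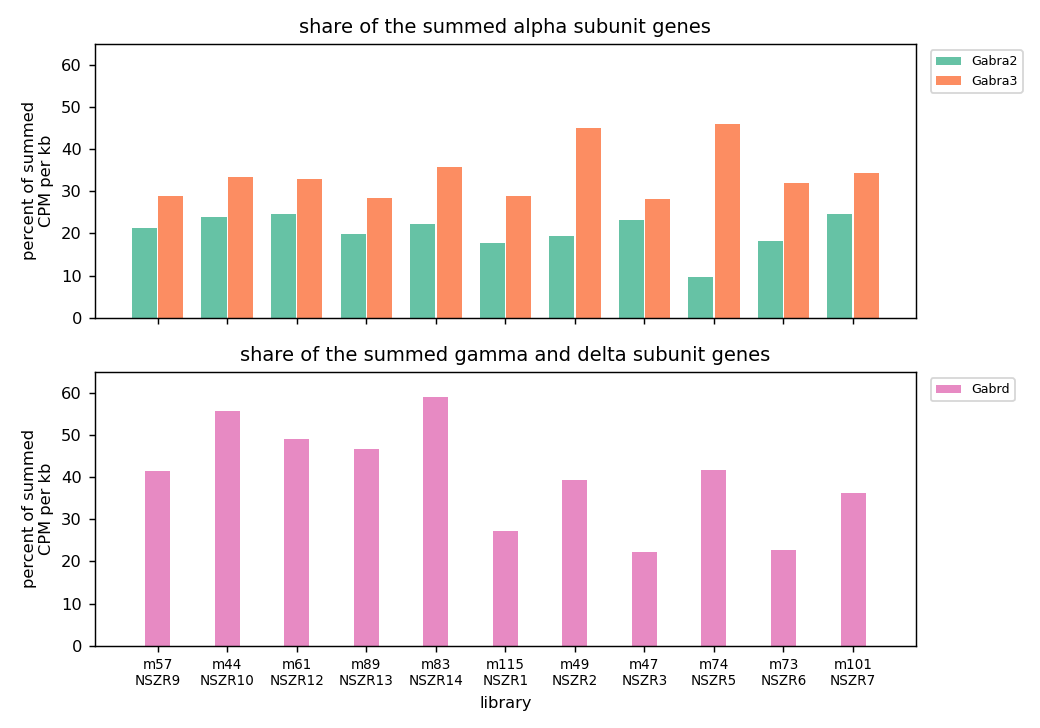
Shares of CPM per kb of exon, 1 bar a gene and library: Gabra2 and Gabra3 among the summed alpha subunit genes, and Gabrd among the summed gamma and delta subunit genes. Gabra2 has its lowest share (9.68%) and Gabra3 its highest (46.0%) in m74, and Gabrd ranges from 22.3 to 59.1%.

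Relations between the members were tested over libraries with Pearson's r by 100000 two-sided permutations, with Benjamini-Hochberg adjustment over all genes for each first measure; a pair was called where either direction gave an adjusted p of at most 0.05. Of 21 pairs, 2 were called, Gabra4 with Gabrb1 and Gabrb1 with Gabrb2. Of all genes, 17.3% were related to Gabrb1, 14.0% to Gabrb2, 1.61% to Gabra4, 0.807% to Gabrd and 0.0% to each of Gabra2 (without m74), Gabra3 and Gabra5. Pairs with Gabra2 were tested on the 10 libraries without m74, and none of 6 was called. With edgeR's quasi-likelihood slope 0 of the 6 were called and 0 had an unadjusted p under 0.05. By permutation 1 of them did, Gabra2 with Gabra5 (r = 0.825, rho = 0.745, permutation p = 0.00418, adjusted p = 0.873). Gabra2 and Gabra4 had r = 0.674 over all libraries and 0.382 without m74.

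Gabra4 and Gabrb1, the head-to-head pair, had r = 0.814 and rho = 0.836 (permutation p = 0.00149 and 0.00247). The adjusted permutation p was 0.02 with Gabrb1 as first measure and 0.0595 with Gabra4. It depended on m74, without which r was 0.726 and the adjusted p 0.0755. Without the 2 libraries farthest from the median r was 0.737 (m49 and m74 left out, Gabra4 as first measure) and 0.827 (m47 and m57, Gabrb1 as first measure). Within the 6 libraries coded NSZR1 to NSZR7 r was 0.934 (exact permutation p = 0.0111); the 5 others are too few for an r. The RefSeq promoters of the pair are shown because these neighbours moved together, chr5:71658364-71658558, minus strand, for Gabra4 and chr5:71699825-71699931, plus strand, for Gabrb1, with annotated exon bases left out.
Gabra4: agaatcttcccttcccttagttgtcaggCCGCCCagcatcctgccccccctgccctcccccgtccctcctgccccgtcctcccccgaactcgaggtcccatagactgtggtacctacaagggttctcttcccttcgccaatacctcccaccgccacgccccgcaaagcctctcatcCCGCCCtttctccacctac
Gabrb1: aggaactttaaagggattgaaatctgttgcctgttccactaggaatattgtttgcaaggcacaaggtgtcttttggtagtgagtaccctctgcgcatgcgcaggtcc
The Gabrb1 window, 1 of 2 found for that gene, belongs to a start site inside the gene as GENCODE draws it, not to the end that meets Gabra4. Both strands were also searched for a cAMP response element (TGACGTCA), which 1.55% of all RefSeq promoters held. A TATA box was sought as the letters TATAAA, held by 12.4% of promoters. For a retinoid receptor half-site the letters were AGGTCA, held by 14.0%. None of these was found in the windows printed for Gabra2, Gabra4 or Gabrb1. The windows of Gabra4 (195 bases) and Gabrb1 (107 bases) are shorter than the 250 bases to which those shares refer. None of the motifs contains another.

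Gabrb1 with Gabrb2 had r = 0.807 and rho = 0.782 (permutation p = 0.00372 and 0.00627, adjusted p = 0.0319 and 0.0469). Without 1 of m115, m44, m83, m47 or m57 the adjusted permutation p was 0.057 to 0.0773. Without m47 and m57 r was 0.685. Within the libraries coded NSZR1 to NSZR7 r was 0.759 (exact permutation p = 0.0986).

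Both beta genes followed the long minus short measure. Gabrb2 had r = 0.883 and rho = 0.927 with it (permutation p = 0.00067 and 0.00016, adjusted p = 0.00628 and 0.00644), and Gabrb1 had r = 0.843 and rho = 0.791 (p = 0.00214 and 0.00573, adjusted p = 0.0128 and 0.0309). Across all genes 17.0% were related to it in this direction and 14.4% in the other, and 2 of the 7 members were, both in the first direction. The 376 genes within 10% of the exon length of Gabrb1 had a median r of 0.745 with this measure. For the 1649 genes of like length to Gabrb2 the median r was 0.336. The part of exon length in the 2 relations was not tested. Without m57 and m61, the libraries farthest from the median, r was 0.895 for Gabrb2 and 0.923 for Gabrb1. Within the libraries coded NSZR1 to NSZR7 r was 0.844 for Gabrb2 (exact permutation p = 0.0472) and 0.957 for Gabrb1 (exact permutation p = 0.0153). By rank neither gene had a p below 0.05 in these libraries. Their rho was 0.829 for Gabrb2 (exact permutation p = 0.0583) and 0.771 for Gabrb1 (exact permutation p = 0.103). The other 5 members did not pass the threshold, with r from -0.46 for Gabrd to 0.544 for Gabra4.

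The genes most like Gabrb2 were E330009J07Rik (r = 0.982), Gcc2 (0.981), B230209E15Rik (0.981), Lmbrd2 (0.980) and Lin7a (0.979). Among the genes most like Gabrb1 were Jade1 (0.978) and Map2 (0.976), the second coding for a dendritic microtubule protein. For Gabrb2, the member of widest range, 1 of 3 RefSeq promoter windows is shown, chr11:42420951-42421200, plus strand. Its start site lies inside the gene as GENCODE draws it. This window held none of the motifs searched and was 36.8% G and C.
Gabrb2: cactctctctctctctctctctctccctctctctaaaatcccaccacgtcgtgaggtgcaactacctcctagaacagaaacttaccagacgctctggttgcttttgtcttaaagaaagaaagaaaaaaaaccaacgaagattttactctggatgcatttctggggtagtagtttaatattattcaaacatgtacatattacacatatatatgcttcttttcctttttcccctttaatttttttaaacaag

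Of the other subunit genes, 2 of the 7 past the filter were related to the long minus short measure in the same direction, among them Gabrq, the theta subunit gene (r = 0.645, adjusted permutation p = 0.0444). By rank Gabrq missed the threshold (rho = 0.455, adjusted permutation p = 0.309), and its counts were low, from 15 to 277. Among the 22 synapse genes 6 were related in this direction and 4 in the other. Gphn, the gephyrin gene, was among the first (r = 0.828), and the short transcripts Gabarap (r = -0.973), Gabarapl1 (r = -0.869) and Gabarapl2 (r = -0.905), whose proteins act in receptor trafficking and autophagy, were among the second. Of 15 GABA synthesis, transport and receptor genes, 5 were related, all in the same direction as Gabrb2. Over all genes tested 17.0% were related in the direction of Gabrb2 and 14.4% in the other, so such relations were common beyond these lists.

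Gabrd was the one member whose levels did not overlap between the 2 sets of codes. It had 76.51 to 112.4 CPM (median 102.2) in the 5 libraries coded NSZR9 to NSZR14 and 32.54 to 50.24 CPM (median 41.4) in the 6 coded NSZR1 to NSZR7. Of all genes, 1.67% were higher in the first set without overlap and 2.32% did not overlap in either direction. The sets were drawn by the code numbers after the marker clusters had been seen, and no test was made between them. Ppp1r1b had 993.5 to 1352 CPM in the first set and 437.5 to 645.7 CPM in the second, and Penk 807 to 1321 CPM and 300.7 to 409.6 CPM. Drd1 and Drd2, the dopamine receptor genes of the 2 kinds of projection neuron, did not overlap either, at 114.8 to 171.1 CPM against 45.12 to 84.48 CPM, and 84.59 to 136.2 CPM against 41.72 to 60.58 CPM. Penk, Drd1 and Drd2 were picked from the projection neuron markers after their values were seen. Other markers of that list did overlap. Meis2 had both its lowest level (220.1 CPM, m74) and its highest (385.6 CPM, m49) within the libraries coded NSZR1 to NSZR7. How many markers of the list overlapped is not given here. The part of projection neuron content in the Gabrd level was not tested.

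**Figure D5:**
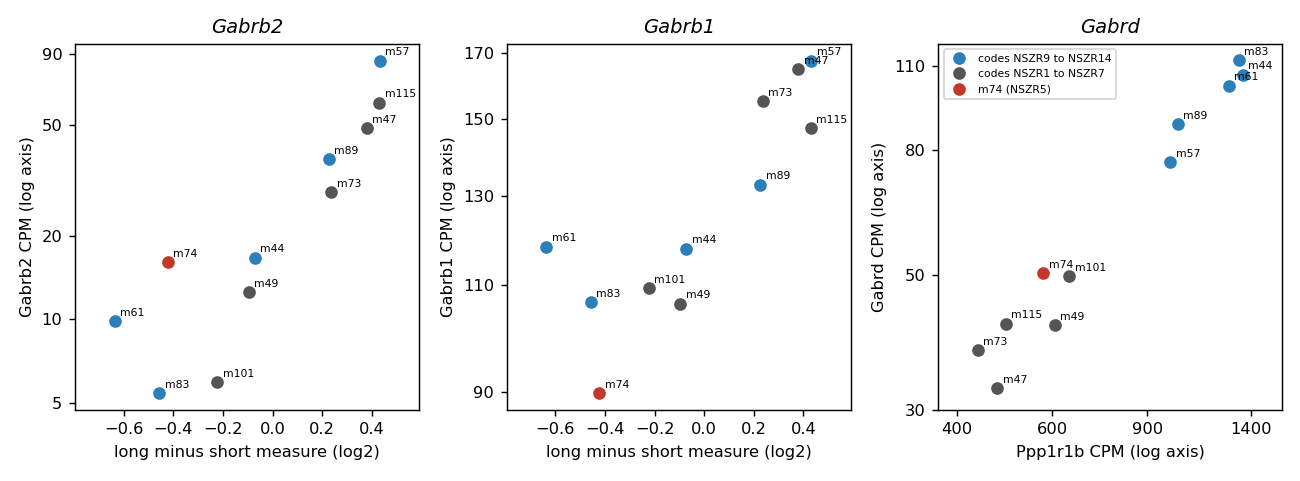
Gabrb2 and Gabrb1 CPM (log axes) against the long minus short measure, and Gabrd against Ppp1r1b CPM (both log axes), 1 point a library. Gabrb2 and Gabrb1 are higher in libraries with a higher measure (r = 0.883 and 0.843), and the 5 libraries of codes NSZR9 to NSZR14 stand apart for Gabrd and Ppp1r1b.

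Over the 11 libraries the genes most like Gabrd were Ier5l (r = 0.985), Ppp1r1b (0.983), Penk (0.981), Rxrg (0.981), a retinoid X receptor gene, and Cartpt (0.976), the gene of the CART peptide. These values span both sets of codes and so carry the gap between them. Within the 6 libraries coded NSZR1 to NSZR7 Gabrd had r = 0.758 with Ppp1r1b (exact permutation p = 0.0917), 0.825 with Penk (exact permutation p = 0.05), 0.271 with Drd2 (exact permutation p = 0.578) and -0.717 with Drd1 (exact permutation p = 0.1). With the score over all 18 projection neuron markers r was -0.269 in these 6 libraries (rho = -0.086, exact permutation p = 0.614). The signs thus differed between markers, and none of these relations had a p below 0.05.

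The other 6 members overlapped between the sets of codes. Medians in the libraries coded NSZR9 to NSZR14 and in those coded NSZR1 to NSZR7 were 228.7 and 194.4 CPM for Gabra2, 114.6 and 97.81 CPM for Gabra4, 167.7 and 171.7 CPM for Gabra3, and 61.06 and 56.77 CPM for Gabra5. Gabrb1 had 118.2 and 128.4 CPM, and Gabrb2 16.67 and 22.37 CPM. Gabra4 and Gabrd, which can share a receptor, had r = 0.211 over 11 libraries (rho = -0.073, permutation p = 0.52, adjusted p = 0.739), which misses the threshold.

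The marker scores of cortical glutamatergic neurons and of astrocytes were related to none of the 7 members by permutation test. Unadjusted, 0 members had a p under 0.05 with the cortical score and 1 (Gabra5) with the astrocyte score; edgeR's quasi-likelihood slope called 0 and had 1 unadjusted p under 0.05 with each. No gene of the table passed either score's threshold, so a count of 0 is also the background. Gabra3 was most like Calb2, the calretinin gene (r = 0.919), Gabra4 most like Kcnip4 (0.968), Dgkb (0.968) and Neto2 (0.965), which codes for an auxiliary subunit of kainate receptors, and Gabra5 most like Trim37 (0.857).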

How the data were processed

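Poly(A) RNA of 11 accumbens shell punches was sequenced with a stranded kit after 12 cycles of PCR, per the labels' protocols. The authors deposited raw counts per gene, not normalized. Their tools were HTSeq 0.6.1, Bowtie2 2.1.0, TopHat2 2.0.14 and bcl2fastq 2.17.1.14, with mm10, per the submitters' processing notes. Neither the strand setting nor the annotation release is given in the sources used here. Names, coordinates and lengths came from GENCODE M21 (52403 of 52550 identifiers matched), whose limits can differ from those counted. CPM values were computed with TMM factors in edgeR 4.0.16 (R 4.3.3), and log2 values with a pseudocount of 0.5. Library totals of 24840981 to 48825783 counts put 3 counts, the floor, at 0.0619 to 0.133 CPM; counting error is the only error this covers. The smallest p that 100000 permutations can give is 1e-05. Adjusted p-values for relations run over 15373 genes; the shares of related genes leave out the gene or markers that form the first measure.

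A measure was said to fall into separate clusters when its largest gap passed 0.5 of its range and 2 or more libraries lay on either side; no relation over all libraries is given for such a measure. Scores are the mean log2 deviation of a marker list. The permutation step was tested on simulated data of 15373 genes for the long minus short measure: it recovered 87 of 100 genes with a log2 slope of 2 per unit and 13 of 100 with a slope of 1, and edgeR recovered 100 and 66. Each library is 1 animal, so p-values measure the spread between animals, of unknown genotype, together with library differences. No sequencing batch is given in the labels.

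The members and gene lists were chosen with earlier results of these data known. Genes named beside the 7 members are the other subunit genes, abundant or variable members of the other lists and their members lowest in m74, the genes of highest r to each member, and those within 2 Mb of Gabra2; genes named because they were lowest in m74, and Drd1, Drd2 and Penk, were chosen after their values were seen. Some genes that this rule names are not reported here. RefSeq promoter windows were found for 6 of 7 members, Gabrd having none. Alternatives were DESeq2 1.42.0 size factors, other pseudocounts, filters, tests and lengths, and leaving out each library. Other tools were matplotlib 3.10.9, scipy 1.17.1, pandas 2.3.3 and numpy 2.4.6 in Python 3.11.15.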

Additional observations from a re-analysis of the deposited data

How the results depend on the processing

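The count of 2 related member pairs became 1 with no filter on low counts, and lay between 1 and 2 with each library left out. The share of Gabra2 among alpha subunit genes in m74, 9.68% per kb of exon, was 16.7% per coding length and 15.2% with no division by length, which follows from the lengths used. The count of members with a log2 range of at least 1 lay between 3 and 4 with each library left out (3 without m74), and 2 members were related to the long minus short measure under each of the 19 alternatives run. The deviation of Gabra2 in m74 lay between -1.69 and -1.59 with each library left out. For single genes and pairs, 273 of 282 values kept their direction and side of the threshold, 8 lost the threshold, 1 moved (the range of Gabra2 without m74) and 0 reversed. The lost ones concern the 2 pairs; with no filter the adjusted p of Gabrb1 with Gabrb2 was 0.062. Scaling by total counts moved the median of all genes by -0.14 in m61 to 0.08 in m115. No relation to the projection neuron score over all libraries, or under its alternatives, is reported, since the score fell into separate clusters. The analysis within the libraries coded NSZR1 to NSZR7 was chosen after seeing the data. No paired analysis was possible because the labels put the libraries in no group.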

Other observations

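Several subunit genes had little expression in the shell. Gabrq, the theta subunit gene, had 6.91 CPM in m115, and at most 2.59 CPM in the other libraries. Gabre, the epsilon subunit gene, was also highest in m115, at 2.82 CPM, and lowest in m74, at 0.318 CPM (13 counts). Gabrq, Gabre and Gabra3 lie on the X chromosome, where Gabra3 had its lowest level in m115, at 141.1 CPM. Gabra6, the cerebellar alpha6 subunit gene, had no count in 9 of 11 libraries and at most 2 counts in the others, and Gabrp, the pi subunit gene, had 0 counts in all 11, which allows up to 0.0619 to 0.133 CPM a library. The rho subunit gene Gabrr2 reached 1.05 CPM in m83 and had 0 counts in m61, and Gabrr1 and Gabrr3 stayed at or below 12 and 3 counts.

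In m74 the lowest deviations of all genes were those of Gm13394 (-5.54), Gm40518 (-3.21), Gm44675 (-3.06), Gm8420 (-2.14) and Baiap2l1 (-2.14), an actin regulator gene. For all 5 a lower level than in m74 was found in another library. The next 3, mt-Atp8, Calcr and D430036J16Rik, had their lowest level in m74, as Gabra2 did: mt-Atp8 had 223.6 CPM there and at least 514.6 CPM elsewhere, Calcr 0.367 and at least 1.15 CPM, and D430036J16Rik 1.32 and at least 2.91 CPM. Among genes near Gabra2, Guf1, which codes for a mitochondrial translation factor, fell furthest in m61, by 1.87 on the log2 scale, where Gabra2 had its highest level.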
